A study of Mus musculus with 2 samples.

Results

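Oxidative phosphorylation subunits are the 94 genes, of 32285 in the files, whose symbols name a subunit of respiratory complexes I to IV or of ATP synthase (complex V) and that held at least 10 UMIs over both libraries. UMIs are molecule tags, so a UMI count is a count of captured transcripts. The symbol rule matched 98 genes, and the 4 below the minimum were Cox7b2, Cox8b and Cox8c, each with 0 UMIs, and Ndufa4l2 with 7 UMIs. Of the 94 members, 81 are encoded in the nucleus and 13 in the mitochondrial genome. Complex I has 36 nuclear and 7 mitochondria-encoded members, complex II has 4 nuclear members and no mitochondria-encoded member, complex III has 8 and 1, complex IV has 16 and 3, and complex V has 17 and 2. Ndufa4, whose symbol places it in complex I, was counted with complex IV, where its protein is now assigned.

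The respiratory chain passes electrons from NADH and succinate to oxygen and pumps protons across the inner mitochondrial membrane, and ATP synthase uses that gradient to make ATP. Complexes I, III, IV and V are built from subunits of both genomes, whereas complex II is wholly nuclear and is also an enzyme of the tricarboxylic acid cycle. The mitochondrial genome is transcribed as long precursors from each strand that are cut into single messages, while every nuclear subunit has a promoter of its own. Resting lymphocytes and activated or dividing immune cells are known to differ in how much they respire.

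The cells came from AT3 tumors, a mouse mammary carcinoma line, grown in the mammary fat pad. Tumors of 10 female mice aged 6 to 12 weeks were pooled for each genotype 30 days after injection, and each pool, Pgd fl/fl or Pgd fl/fl LysM-Cre, gave 1 library. Both genotypes carry floxed alleles of Pgd, which encodes 6-phosphogluconate dehydrogenase of the pentose phosphate pathway, and the second also carries Cre under the Lyz2 (LysM) promoter, which is active in macrophages, monocytes, neutrophils and part of the dendritic cells. The labels state a CD45+ sort and, in another sentence, a CD11b+ sort; T and B cells were present in both libraries, and so were clusters led by Krt8 and by Dcpp3. The paper describes pooling the sorted suspensions of both genotypes after labelling, and a library here is the set of cells deposited for 1 genotype. With 1 pool of mice and 1 library a genotype there was no replicate. Every interval given here is an exact 95% interval that covers counting error only. A difference of genotype cannot be told apart from a difference between those 2 pools of mice or their libraries.

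Depth was 27245625 UMIs over 3728 barcodes for Pgd fl/fl and 28827045 UMIs over 3014 barcodes for LysM-Cre, with 0 barcodes in common. After filters, 3565 and 2798 cells were kept, with medians of 5554 and 7926 UMIs. The filter on mitochondrial UMIs, at most 15% of a cell, uses the mitochondria-encoded members themselves and removed 29 and 48 cells. Levels of single genes are given as UMIs per 1000000 UMIs of a cell type in a library (CPM), Pgd fl/fl before LysM-Cre, and the log2 ratio is LysM-Cre over Pgd fl/fl. Pgd itself stood at 104 and 30.2 CPM in macrophages (735 and 733 cells), with a log2 ratio at -1.79 and an interval from -1.98 to -1.60. In monocytes (128 and 328 cells) it was 76.3 and 31.1 CPM (log2 ratio -1.29, -1.69 to -0.90), and in T cells (1110 and 632 cells) 23.7 and 28.8 (0.28, -0.12 to 0.68). Pgd was also lower, with intervals below 0, in unnamed clusters led by Krt8 (-1.19), H2-M5 (-0.70) and Retnla (-2.33, from 7 and 5 UMIs). By its markers the Retnla cluster scored highest for macrophages (1.74) and monocytes (1.54). The H2-M5 cluster, with Cd207 among its leading genes, scored low for every type (at most 0.571). The Krt8 cluster scored highest for fibroblasts (3.72) and epithelial cells (3.08). By the limits used for naming, 0 fibroblast markers were detected in it, and 3 of its leading genes were epithelial markers. A decrease outside the named types thus rests mainly on the H2-M5 cluster, with 63 and 60 UMIs of Pgd, and the Krt8 cluster, with 41 and 32. The markers used did not assign the H2-M5 cluster to a myeloid or any other type.

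Promoters of the nuclear members are shown first because they are the part of the set that has its own regulatory sequence. RefSeq promoters (GRCm38.p6, 250 bases before to 50 after a gene's start) were found for 65 of the 81 nuclear members. Each was searched on both strands for GCGCANGCG, the core letters bound by NRF1, and for CCGGAAG, letters bound by ETS factors such as GABP, which are known regulators of respiratory genes; the motifs can overlap each other by at most 1 base. The NRF1 letters were present in 20 of the 65 members (30.8%) and in 1684 of 17491 protein-coding genes with a promoter (9.63%). The ETS letters were present in 17 members (26.2%) and in 2264 of all those genes (12.9%). At least 1 of the motifs was found in 31 members (47.7%) against 20.5% of all. By complex, the NRF1 letters were in 7 of 14 promoters of complex V, in 8 of 31 of complex I and in 1 of 12 of complex IV. The promoters below are those of Cox6a1, the sole complex IV member with the NRF1 letters among the 12 searched, and of 3 members whose levels differed among cell types or T cell clusters as described further on. Capitals mark the motif letters.
Cox6a1 (chr5:115348909-115349208, minus strand): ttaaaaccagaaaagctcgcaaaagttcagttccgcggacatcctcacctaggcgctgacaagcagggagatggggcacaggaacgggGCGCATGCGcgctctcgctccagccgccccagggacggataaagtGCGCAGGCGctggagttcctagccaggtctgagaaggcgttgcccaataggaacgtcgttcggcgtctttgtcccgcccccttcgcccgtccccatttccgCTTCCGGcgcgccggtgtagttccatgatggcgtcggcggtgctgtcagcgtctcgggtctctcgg
Uqcr11 (chr10:80406772-80407071, minus strand): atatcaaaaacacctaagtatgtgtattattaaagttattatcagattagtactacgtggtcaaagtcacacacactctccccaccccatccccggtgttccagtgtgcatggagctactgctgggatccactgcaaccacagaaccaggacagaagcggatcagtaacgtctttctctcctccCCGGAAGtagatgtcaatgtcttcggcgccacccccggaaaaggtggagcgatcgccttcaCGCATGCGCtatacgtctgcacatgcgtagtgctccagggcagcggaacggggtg
Ndufa4 (chr6:11907401-11907700, minus strand): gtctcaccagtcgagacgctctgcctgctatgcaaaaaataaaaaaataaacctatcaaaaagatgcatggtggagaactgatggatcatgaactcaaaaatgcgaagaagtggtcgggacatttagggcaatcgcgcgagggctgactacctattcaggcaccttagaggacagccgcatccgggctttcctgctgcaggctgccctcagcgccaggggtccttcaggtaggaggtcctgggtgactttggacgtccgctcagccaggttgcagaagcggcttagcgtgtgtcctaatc
Cox7a2l (chr17:83514284-83514583, minus strand): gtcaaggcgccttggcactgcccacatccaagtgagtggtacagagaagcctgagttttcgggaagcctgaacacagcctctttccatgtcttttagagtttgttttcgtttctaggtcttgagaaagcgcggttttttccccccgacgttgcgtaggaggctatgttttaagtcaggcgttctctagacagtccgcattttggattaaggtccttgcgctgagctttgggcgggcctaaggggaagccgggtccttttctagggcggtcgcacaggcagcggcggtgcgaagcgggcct
Cox6a1 held 2 separate stretches with the NRF1 letters and 1 with the ETS letters. Uqcr11 held 1 of each. The windows of Ndufa4 and Cox7a2l held neither set of letters, which says nothing of factors that may bind them.

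Cell types differed in both parts of the respiratory chain, and the nuclear and the mitochondria-encoded part did not rank the types in the same order. Nuclear members made up 1.55% of all UMIs in B cells of the Pgd fl/fl library and 1.40% in those of the LysM-Cre library, the lowest values apart from neutrophils. Mitochondria-encoded members made up 3.59% and 4.24% of the UMIs of the same B cells, the highest values among the 7 named types. B cells thus had the fewest nuclear transcripts per mitochondria-encoded transcript of the named types, 0.431 and 0.331 (ratio of summed UMIs). Monocytes stood near equality, at 0.994 and 1.01, but at 0.869 and 0.857 under a finer clustering that named fewer of them (22 and 45 cells). Macrophages had ratios of 0.730 and 0.757, from nuclear shares of 1.78% and 1.92% and mitochondria-encoded shares of 2.44% and 2.54%. T cells stood at 0.700 and 0.862, natural killer and innate lymphoid cells at 0.727 and 0.715, dendritic cells at 0.883 and 0.848, and neutrophils at 0.946 and 0.987. The neutrophil ratio was unstable, at 1.13 and 1.35 with a limit of 10% mitochondrial UMIs and 0.506 and 0.920 in cells of 4000 to 16000 UMIs. Counting intervals of these shares were far narrower than the gap between B cells and monocytes in both libraries.

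**Figure D1:**
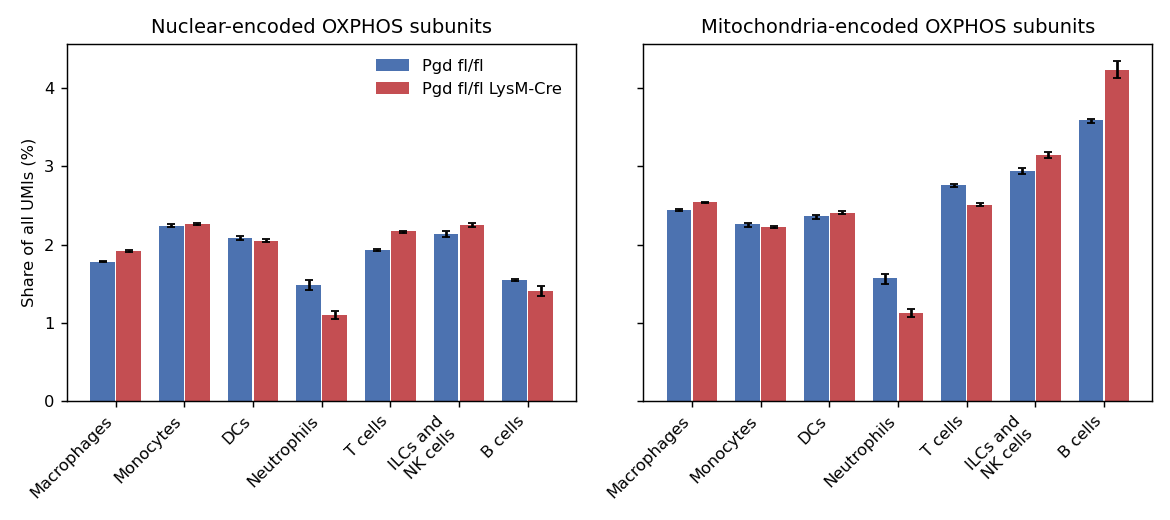
Share of all UMIs (%) taken by the 81 nuclear-encoded (left) and the 13 mitochondria-encoded subunits (right) in 7 named cell types; bars are the 2 libraries and error bars are exact 95% counting intervals. B cells have a low nuclear share (1.55% and 1.40%) and the highest mitochondria-encoded share (3.59% and 4.24%), and neutrophils are low in both.

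Neutrophils had the lowest share of both parts, 1.48% and 1.10% nuclear and 1.57% and 1.12% mitochondria-encoded, but held a median of 2231 and 2113 UMIs a cell. Ribosomal protein transcripts, 8.60% and 5.73% of their UMIs, were also far below those of the other named types, which stood at 15.6% to 34.7%. The outermost groups on the other side were not named immune types. A cluster led by Dcpp3, Dcpp1 and Lcn2 had 3.69% and 3.78% nuclear and 4.58% and 5.33% mitochondria-encoded UMIs. A cluster led by Krt8 and Krt14 had 2.78% and 2.72% nuclear and 4.10% and 4.94% mitochondria-encoded UMIs. These clusters stayed unnamed under the markers used, although the labels call the cells immune.

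T cell clusters also differed among themselves. The Foxp3 cluster had 2.25% and 2.21% nuclear and 2.05% and 2.02% mitochondria-encoded UMIs, so its nuclear part was the larger. The cluster led by Lef1, Dapl1 and Tcf7, genes of naive T cells, had 1.54% and 1.45% nuclear and 3.08% and 3.09% mitochondria-encoded UMIs, a nuclear share near that of B cells. The remaining 3 T cell clusters, led by Ccl20 and Csf2, by Il17a and Trdc, and by Ifit3, had nuclear shares of 2.02% to 2.35% and mitochondria-encoded shares of 2.53% to 3.23%. A cluster led by Ly6c2, Cd8b1, Ccl5 and Cd8a, with 467 and 297 cells, was kept out of the T cells by the naming limits and had 2.06% and 2.11% nuclear and 2.57% and 2.71% mitochondria-encoded UMIs. Across all 20 clusters, the nuclear share followed the level of cell cycle genes (Spearman's rho 0.69 for the Pgd fl/fl and 0.71 for the LysM-Cre share). That level was taken over both libraries together, so these values are not independent. The nuclear share followed the mitochondria-encoded share of the same library only weakly (0.24 and 0.27). These are descriptions over 20 clusters that share libraries and differ in depth. The cluster with the most cell cycle transcripts, led by Mcpt2, Cpa3, Pclaf and Stmn1, had 2.63% and 2.58% nuclear and 2.58% and 2.51% mitochondria-encoded UMIs. It was probably a mixture. Under the finer clustering a mast cell cluster led by Mcpt2 held 0 and 15 cells. A separate dividing cluster led by Hist1h1b and Pclaf held 130 and 144 cells and scored highest for T cells (0.909).

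**Figure D2:**
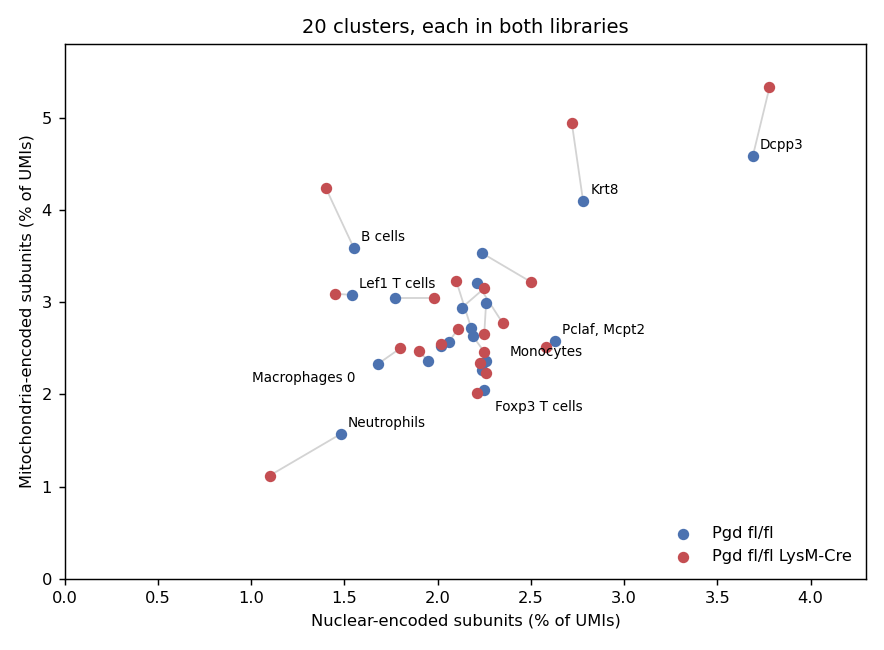
Nuclear-encoded (x axis) against mitochondria-encoded subunits (y axis), each as % of UMIs, for 20 clusters; blue points are the Pgd fl/fl and red points the LysM-Cre library, joined by a grey line for each cluster, and selected clusters are labelled. B cells and the Lef1 T cells lie at the upper left (1.55% and 1.54% nuclear in the Pgd fl/fl library), and the Dcpp3 cluster at the upper right (3.69%).

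The split between B cells and the pooled T cells ran through the whole set rather than a few genes. Of 77 nuclear members with at least 50 UMIs over both types in each library, 67 were lower in B cells in both libraries and 0 were higher in both, with median log2 ratios of -0.32 and -0.63. All 13 mitochondria-encoded members were higher in B cells in both libraries (medians 0.42 and 0.78). Over all 6034 genes compared, 3129 were lower and 1348 higher in both libraries and the medians were -0.21 and -0.36, so the nuclear members lay below them by 0.11 and 0.27. Past a log2 ratio of 0.5 in both libraries, 14 nuclear members were lower, against 25.1% of all genes, and 3 mitochondria-encoded members (mt-Nd2, mt-Nd4 and mt-Nd5) were higher, against 7.09% of all genes. The nuclear count is thus below the share of all genes, and it is the common direction, not the size, that most members shared. B cells of the LysM-Cre library numbered 35, so the second value of each pair is imprecise. The T cells differed in makeup too, with the Lef1 cluster 42.6% of them in the Pgd fl/fl and 9.02% in the LysM-Cre library. The summed nuclear share of B cells (1.55% and 1.40%) was close to that of the Lef1 cluster (1.54% and 1.45%). Their mitochondria-encoded share (3.59% and 4.24%) was above that of the Lef1 cluster (3.08% and 3.09%).

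The cluster named monocytes, led by Chil3, Ly6i, Cd209a and Plac8, differed from macrophages mainly in the nuclear part. Cd209a is a dendritic cell marker, and under the finer clustering 106 and 281 of its 128 and 328 cells fell in a cluster that stayed unnamed, with a dendritic cell score of 1.13 and a monocyte score of 1.12. The 22 and 45 cells still named monocytes there had nuclear shares of 1.84% and 1.91%, near those of macrophages, so the nuclear difference holds for the whole cluster and not for these cells. Of 80 nuclear members compared, 68 were higher in monocytes in both libraries and 2 lower, with median log2 ratios of 0.30 and 0.22 where all 9148 genes had medians of -0.11 and -0.11 and 2561 of them were higher in both. All 17 nuclear members of complex V, all 8 of complex III and 14 of 15 of complex IV were higher in monocytes in both libraries, whereas complex II split 1 and 1. Among the 13 mitochondria-encoded members 10 were lower in monocytes in both libraries and 1 was higher (medians -0.09 and -0.18). Past 0.5 in both libraries, 5 of the 80 nuclear members were higher in monocytes (Ndufb3, Ndufa4, Ndufb1-ps, Cox6a2 and Cox6b2), against 4.94% of all genes, and 0 members were lower, against 13.4%. Over both libraries, Cox6a2 (83 UMIs in monocytes and 66 in macrophages) and Cox6b2 (37 and 69) rest on few UMIs.

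Macrophages and T cells differed by member rather than as a whole. Of 78 nuclear members, 26 were higher and 37 lower in macrophages in both libraries, with medians of -0.04 and -0.07. Past 0.5 in both libraries, 4 were higher (Sdhc, Sdhd, Ndufc2 and Cox7a1), against 24.7% of all genes, and 3 were lower (Uqcrh, Ndufa4 and Ndufa13), against 18.8%. Cox7a1 rests on few UMIs over both libraries, 109 in macrophages and 15 in T cells. Its macrophage UMIs thus did most to meet the minimum count. Subunits of the respiratory chain therefore passed 0.5 less often than the background of all genes in this contrast.

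Individual members varied among types by amounts that the sums hide. Ndufa4, a small subunit of cytochrome c oxidase, stood at 161 and 183 CPM in macrophages and at 483 and 520 in natural killer and innate lymphoid cells. Its log2 range over the 6 types other than neutrophils was 1.59 and 1.53, where the median nuclear member with at least 10 UMIs in every type and library had a range of 0.71 and 0.85. Ndufc2, an accessory subunit of the membrane arm of complex I, ran the other way, at 286 and 264 CPM in macrophages, 129 and 164 in T cells and lower in B cells, where it had 219 and 15 UMIs. Cox5a, a structural subunit of complex IV, stood at 503 and 467 CPM in monocytes and at 210 and 180 in B cells. These 3 members were chosen after their values were seen.

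**Figure D3:**
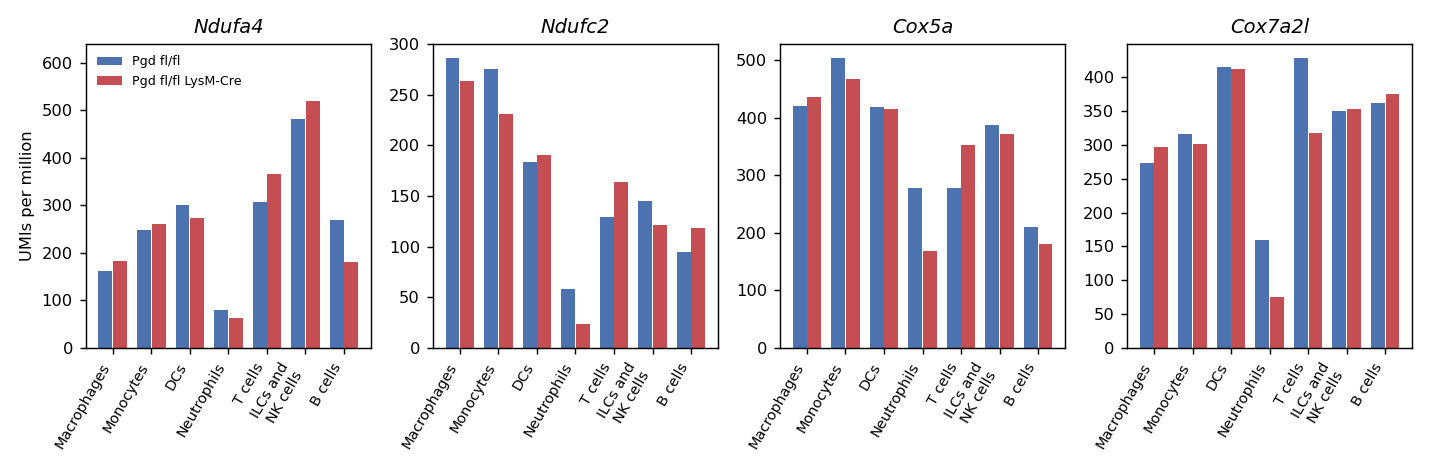
CPM of Ndufa4, Ndufc2, Cox5a and Cox7a2l in 7 named cell types, with 1 bar for each library and no error bars; each panel starts at 0 and has its own scale. Ndufa4 is highest in natural killer and innate lymphoid cells (483 and 520), Ndufc2 in macrophages (286 and 264), and Cox5a in monocytes (503 and 467).

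The mitochondria-encoded members were led by the same 4 genes in all 7 types. mt-Atp6, a subunit of the proton channel of ATP synthase, was 19.1% to 22.8% of the mitochondria-encoded UMIs over the 7 types and both libraries. The catalytic core of cytochrome c oxidase held similar shares, with mt-Co1 at 14.0% to 21.3%, mt-Co2 at 16.4% to 19.4% and mt-Co3 at 17.6% to 19.2%. mt-Cytb, the core of complex III, was 6.69% to 9.87%. The complex I genes were lower, with mt-Nd1 at 3.89% to 5.53%, mt-Nd4 at 3.61% to 4.97%, mt-Nd2 at 2.86% to 6.03%, mt-Nd3 at 1.16% to 1.92% and mt-Nd5 at 0.803% to 1.65%. mt-Nd4l (0.564% to 1.30%) and mt-Atp8 (0.361% to 0.726%) lie on bicistronic messages with mt-Nd4 and mt-Atp6, so reads near the end of these messages are counted mostly for the partner. mt-Nd6, the only member on the opposite strand, was 0.0303% to 0.0896%. These shares compare 3′ tags and are not scaled by length, and a poly(A)-primed library need not capture each message alike. mt-Nd2 stood at 1988 and 2556 CPM in B cells against 674 and 745 in dendritic cells, the widest log2 range of these genes in the Pgd fl/fl library (1.56); in the LysM-Cre library that of mt-Nd5 was wider (1.85 against 1.78).

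Where a subunit has a common and a tissue-restricted isoform, the common form made up nearly all the UMIs, and 53.5% to 94.9% of the UMIs of each restricted form lay in macrophages and monocytes, which held 44.7% of all UMIs. Cox4i1, the common form of subunit 4 of cytochrome c oxidase, stood at 733 and 797 CPM in macrophages, and its counterpart Cox4i2 at 4.50 and 5.82. Of 165 UMIs of Cox4i2 in kept cells, 102 were in macrophages, 25 in monocytes, 29 in a cluster led by H2-M5 and Cd207, 1 in T cells and 0 in B cells. Cox6a2, the form of heart and skeletal muscle, had 149 of its 157 UMIs (94.9%) in macrophages and monocytes. In monocytes it had 33 and 50 UMIs, where the common Cox6a1 had 301 and 938. Cox7a1, another muscle form, had 109 of 275 UMIs in macrophages and 63 in the H2-M5 cluster, against 312 and 341 CPM for Cox7a2 in macrophages. Cox6b2, a testis form, had 69 of 169 UMIs in macrophages and stood below 10 CPM in each of macrophages and monocytes (4.61 and 2.58, and 9.06 and 6.48). By level, Cox7a1 stood at 22.2 and 16.8 CPM in the H2-M5 cluster, against 5.16 and 6.41 in the largest macrophage cluster. Cox4i2 (7.65 and 9.37) and Cox6b2 (6.88 and 8.38) also stood higher there than in macrophages, whereas Cox6a2 had 0 UMIs there. All these levels rest on few UMIs.

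The 3 genes for subunit c of the ATP synthase ring, which encode the same mature protein, kept the same order in macrophages, monocytes and T cells. Atp5g2 stood at 464 and 519 CPM in macrophages, Atp5g1 at 262 and 293, and Atp5g3 at 210 and 224. In T cells the values were 524 and 543, 240 and 263, and 215 and 251, with the last pair of genes close to each other. Atpif1, which encodes the inhibitor of the enzyme and is not a member, was highest in dendritic cells (704 and 628 CPM), lower in macrophages (304 and 297) and monocytes (305 and 298), and lower again in T cells (132 and 179) and B cells (110 and 54.9). Atpif1 of the LysM-Cre B cells rests on 7 UMIs.

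Complex II had the smallest summed share of transcripts and also the fewest members, and these sums are not scaled by the number of genes. Its 4 genes together took 0.0309% and 0.032% of UMIs in macrophages, against 0.508% and 0.535% for the 36 nuclear genes of complex I. In macrophages Sdhb, the iron-sulfur subunit, stood at 109 and 101 CPM, Sdhd, a membrane anchor, at 75.6 and 84.2, Sdha, the flavoprotein, at 74.1 and 76.3, and Sdhc, the other anchor, at 49.9 and 58.0. In T cells the anchors were lower, Sdhc at 33.4 and 39.7 and Sdhd at 50.5 and 38.8, while Sdha was 80.3 and 68.5 and Sdhb 76.7 and 90.9.

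Between genotypes, the respiratory chain of macrophages differed little where Pgd itself fell. The nuclear members took 1.78% of UMIs in the Pgd fl/fl and 1.92% in the LysM-Cre library, a log2 ratio of 0.11 (0.10 to 0.12). The mitochondria-encoded members took 2.44% and 2.54% (0.05, 0.05 to 0.06). The median of the 81 nuclear members was 0.10 and that of the 10455 genes compared was 0.06, so the members stood 0.04 above the common shift. Cytosolic ribosomal protein genes differed more (0.19, 0.19 to 0.20) and genes of the response to tissue dissociation differed the other way (-0.14, -0.15 to -0.13). With ribosomal protein genes left out of the denominator the sums differed by 0.15 and 0.09, and the part of the dissociation genes was not tested. Of the nuclear members 68 of 81 were above 0, where 6344 of 10455 genes were.

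By complex, the nuclear log2 ratios in macrophages were 0.07 for complex I, 0.05 for complex II (interval -0.02 to 0.12), 0.14 for complex III, 0.13 for complex IV and 0.11 for complex V. The mitochondria-encoded ratios were 0.09 for complex I, 0.11 for complex III, 0.04 for complex IV and 0.03 for complex V. All of these values lay between 0.03 and 0.14. The nuclear ratio was above 0 in each macrophage cluster, at 0.09 in cluster 0 (led by Vcam1 and Mmp13), 0.16 in cluster 10 and 0.04 in cluster 11 (dividing cells). Of the 10 leading genes of cluster 10, 7 were antibody or plasma cell transcripts (among them Jchain and Igha), although 7 macrophage markers were detected in it; without it the macrophage sums differed by 0.10 and 0.07. The mitochondria-encoded ratio was 0.10, -0.13 and -0.10 in the same clusters, so its small excess held in cluster 0 alone. Leaving out cells that held a UMI of Cd3e or Cd79a lowered the nuclear ratio in macrophages to 0.06.

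**Figure D4:**
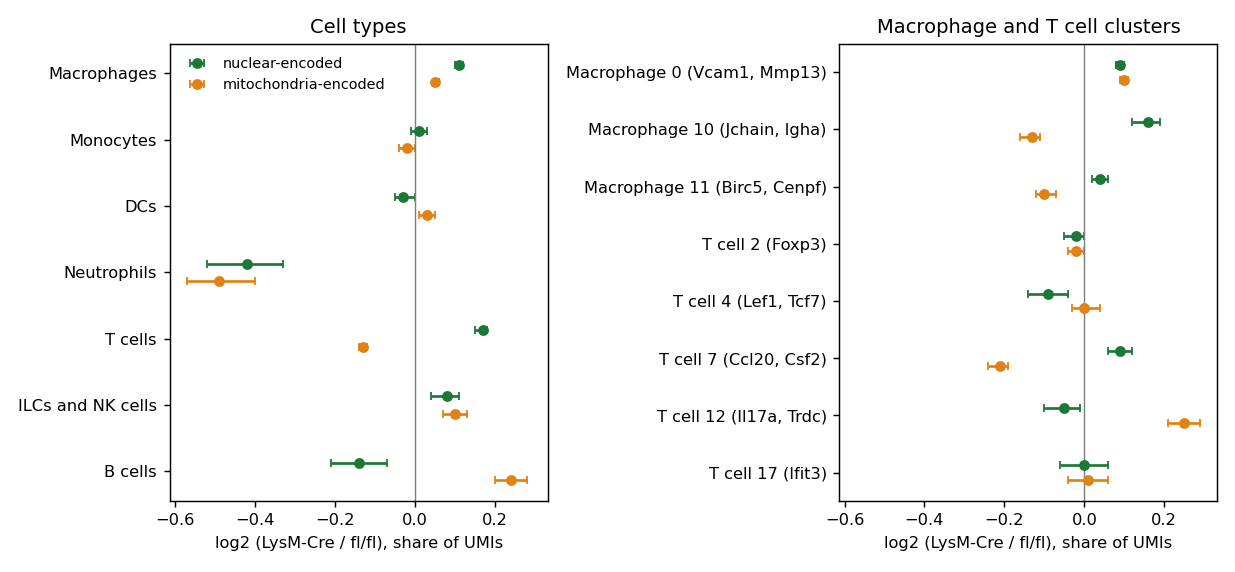
Log2 ratio of the share of UMIs, LysM-Cre over Pgd fl/fl, of the summed nuclear-encoded (green) and mitochondria-encoded subunits (orange) in 7 cell types (left) and in the clusters of macrophages and T cells (right); bars are exact 95% counting intervals. In T cells the sums stand at 0.17 and -0.13, whereas the Foxp3 and Ifit3 clusters lie between -0.02 and 0.01.

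Single members in macrophages gave the same picture. Past a log2 ratio of 0.5, 1 nuclear member was higher (background of all genes 7.32%) and 1 was lower (3.90%), and both rested on few UMIs. Cox6a2 had 23 and 43 UMIs (0.70, -0.06 to 1.50), and Cox6b2 had 42 and 27 (-0.84, -1.59 to -0.11). Of the UMIs of Cox6a2, 0 and 12 lay in cluster 10, and in cluster 0 its ratio was 0.24 (-0.62 to 1.11). The other high values were Cox4i2 at 0.37 (-0.22 to 0.98), Cox7c, a structural subunit of complex IV, at 597 and 703 CPM (0.24, 0.19 to 0.29), Uqcrh, the hinge protein of complex III, at 458 and 536 (0.23, 0.17 to 0.29), and Ndufb5, an accessory subunit of complex I, at 154 and 180 (0.23, 0.13 to 0.33). The other low values were Ndufc2 at -0.12 (-0.20 to -0.04), Sdhb at -0.11 (-0.24 to 0.01), Uqcrc1, a core protein of complex III, at 79.8 and 73.9 CPM (-0.11, -0.26 to 0.04), and Ndufa1, an accessory subunit of complex I, at 204 and 190 (-0.10, -0.19 to -0.01). The well-covered members among these therefore lay between -0.12 and 0.24.

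The most abundant members of each complex lay close together in macrophages. Atp5e, the epsilon subunit of ATP synthase, stood at 735 and 812 CPM (0.14, 0.10 to 0.19) and Atp5l, its subunit g, at 552 and 587 (0.09, 0.03 to 0.14). Cox8a was at 762 and 835 (0.13, 0.09 to 0.18) and Cox4i1 at 0.12 (0.07 to 0.17). Ndufb1-ps, the symbol this annotation gives to the gene of an accessory complex I subunit, was at 418 and 443 (0.08, 0.02 to 0.15), Ndufa13 at 288 and 315 (0.13, 0.05 to 0.20) and Uqcrq, a small subunit of complex III, at 292 and 331 (0.18, 0.11 to 0.25). Of the 13 mitochondria-encoded members 12 were above 0, from mt-Co1 at 0.01 (-0.01 to 0.03) to mt-Nd1, mt-Nd3 and mt-Atp8 at 0.14, and mt-Nd6 was at -0.25 (-0.59 to 0.09).

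Monocytes showed no difference in the sums beyond counting error, although Pgd was lower in them too. The nuclear members took 2.24% and 2.26% of UMIs (0.01, -0.01 to 0.03) and the mitochondria-encoded members 2.26% and 2.23% (-0.02, -0.04 to 0.00). By counting error alone, the bound farthest from 0 was -0.04. By the mean of per-cell shares, which weights each cell alike, the sums differed by -0.03 and 0.10. The median of 78 nuclear members was 0.00 against 0.04 for all 7242 genes. Past 0.5, 0 nuclear members were higher (background 10.6%) and 1 was lower (5.73%), Cox6a2 with 33 and 50 UMIs (-0.94, -1.61 to -0.26), whose value in macrophages had the opposite sign and an interval that included 0. Further low values were Ndufs1 (-0.50, -1.12 to 0.15), Uqcrc2 (-0.41, -0.69 to -0.11), Ndufc2 (-0.25, -0.43 to -0.07) and Atp5mpl (-0.16, -0.32 to 0.00). High values included Ndufa12 (0.36, 0.08 to 0.65), Ndufv3 (0.32, 0.09 to 0.56), Ndufs6 (0.28, 0.03 to 0.53) and Sdhb (0.27, -0.03 to 0.57). Of these named members, Uqcrc2, Atp5mpl, Sdhb and Cox6a2 lie outside complex I, which held 36 of the 78 nuclear members compared. The named complex I members lay on both sides of 0.

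In the named T cells, where the interval for Pgd included 0, the nuclear and the mitochondria-encoded part moved in opposite directions. The nuclear members took 1.93% and 2.17% of UMIs (0.17, 0.15 to 0.18), and the mitochondria-encoded members 2.76% and 2.51% (-0.13, -0.14 to -0.12). Of 77 nuclear members 65 were above 0 (median 0.15), where 5446 of 8480 genes were (median 0.12), and of 13 mitochondria-encoded members 12 were below 0. The Lef1 and Tcf7 cluster, low in the nuclear and high in the mitochondria-encoded part, held 473 of 1110 T cells (42.6%) in the Pgd fl/fl library and 57 of 632 (9.02%) in the LysM-Cre library. Within the clusters the nuclear ratios were -0.02 (Foxp3), -0.09 (Lef1), 0.09 (Ccl20), -0.05 (Il17a) and -0.00 (Ifit3), and the mitochondria-encoded ratios -0.02, 0.00, -0.21, 0.25 and 0.01. Among these clusters both pooled directions were thus seen in the Ccl20 cluster alone. The Ly6c2 and Cd8a cluster, kept out of the T cells by the naming limits, did not show the opposite movement. Its sums differed by 0.04 (0.02 to 0.06, nuclear) and 0.08 (0.06 to 0.10, mitochondria-encoded), and all 13 mitochondria-encoded members were above 0 in it. Ribosomal protein transcripts, 31.4% and 25.3% of T cell UMIs, moved too (-0.31), and with these genes left out of the denominator the T cell sums differed by 0.05 and -0.25. Without the Lef1 cluster the sums differed by 0.01 and -0.03, and 40 nuclear members were above 0 and 37 below.

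The highest and the lowest nuclear member in T cells moved toward 0 without that cluster. Past 0.5, 1 nuclear member was higher (background 12.5%), Uqcr11, a small subunit of complex III, at 156 and 221 CPM (0.51, 0.36 to 0.65), and 0 nuclear members were lower (5.67%). Without the Lef1 cluster the ratio of Uqcr11 was 0.19 (0.03 to 0.35). Cox7a2l, a factor that joins complexes III and IV into supercomplexes, was the lowest nuclear member, at 428 and 318 CPM (-0.43, -0.54 to -0.32). Its level in the Lef1 cluster was 578 and 519 CPM and in the Foxp3 cluster 288 and 251, and without the Lef1 cluster its ratio was -0.08 (-0.21 to 0.05). Sdhd (-0.38, -0.70 to -0.07) did not follow it, with -0.49 (-0.84 to -0.15) without the cluster, and neither did mt-Nd6, with 130 and 54 UMIs (-0.56, -1.05 to -0.09) and -0.59 (-1.14 to -0.06) without it.
The next lowest nuclear members were Sdha (-0.23), Ndufa10 (-0.07) and Ndufv1 (-0.07), and other high members were Ndufa12 (0.41), Atp5d (0.39) and Cox7b (0.35).

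**Figure D5:**
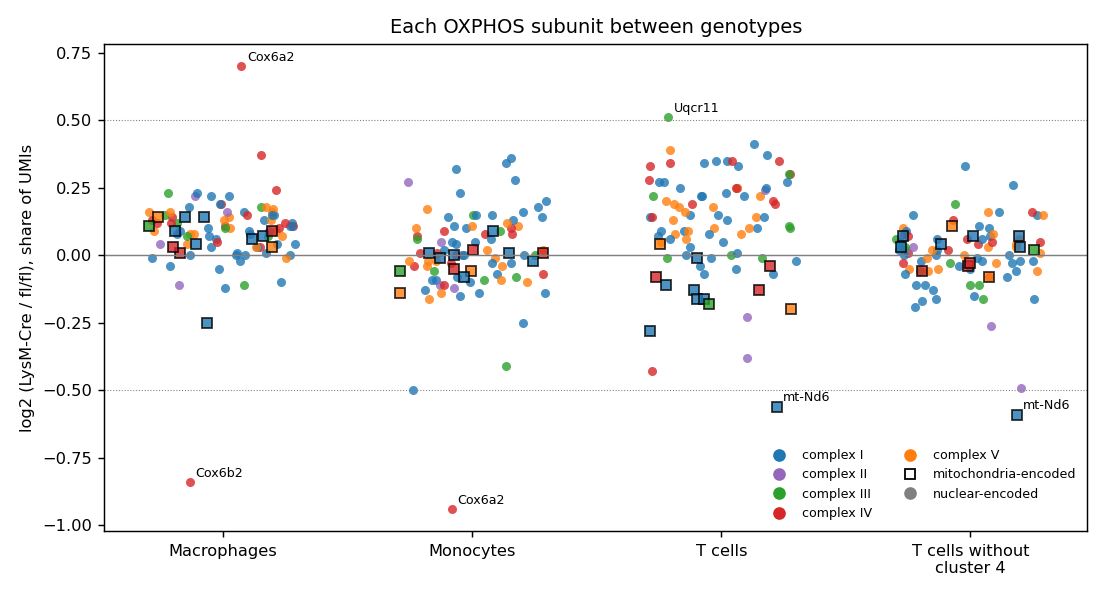
Log2 ratio, LysM-Cre over Pgd fl/fl, of the share of UMIs of each subunit with at least 50 UMIs over both libraries, in macrophages, monocytes, T cells and T cells without the Lef1 cluster (cluster 4); circles are nuclear-encoded, black-edged squares mitochondria-encoded, colours are complexes, sideways spread has no meaning and dotted lines mark 0.5 and -0.5. In T cells the squares lie below most circles, and without cluster 4 both groups centre near 0 (medians 0.01 and 0.03).

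In dendritic cells the sums differed by -0.03 (nuclear) and 0.03 (mitochondria-encoded), and 0 of 76 nuclear members passed 0.5 in either direction (background 11.5% higher and 3.86% lower). In natural killer and innate lymphoid cells they differed by 0.08 and 0.10, with 1 of 76 nuclear members higher (Uqcrfs1, the Rieske iron-sulfur protein of complex III, 0.52, 0.02 to 1.02; background 7.30%) and 0 lower (6.43%). In B cells the nuclear sum differed by -0.14 (-0.21 to -0.07) and the mitochondria-encoded sum by 0.24 (0.20 to 0.28). Of 76 nuclear members of B cells 1 was higher (Ndufs7, an iron-sulfur subunit of complex I; background 21.1%) and 19 were lower (24.5%), with 569 cells against 35. In neutrophils both sums were lower in the LysM-Cre library, by -0.42 (-0.52 to -0.33) and -0.49 (-0.57 to -0.40). Over single neutrophils the median mitochondria-encoded share was 0.508% and 0.347%, against summed shares of 1.57% and 1.12%. The sums were thus not those of a typical neutrophil, and the counting intervals do not cover this spread among cells. There 13 of 32 nuclear members were past -0.5 (background 21.0%) and 0 past 0.5 (14.0%). The median nuclear member was -0.45 and the median of 871 genes -0.06. Atp5g2 had 40 and 16 UMIs in neutrophils (-1.65, -2.58 to -0.78) and Cox4i1 had 91 and 72 (-0.67, -1.13 to -0.20), and the groups held 57 and 72 cells. With no limit on mitochondrial UMIs the mitochondria-encoded ratio of neutrophils was 0.03. Ribosomal protein transcripts of neutrophils moved the same way, and without them in the denominator the sums differed by -0.47 and -0.53.

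Other genes of the respiratory pathway moved little in macrophages as well. Among 12 electron carriers and partners the median log2 ratio was 0.02 and 0 passed 0.5 in either direction; Slc25a5, which exchanges ADP for ATP across the inner membrane, was highest (0.32, 0.25 to 0.38), followed by Gpd2 (0.27, 0.00 to 0.55), and Etfb (-0.15, -0.28 to -0.01) and Ucp2 (-0.12, -0.16 to -0.07) were lowest. Among 43 assembly factors the median was 0.04, 0 were past 0.5 and 1 was past -0.5, Timmdc1, an assembly factor of complex I (-0.52, -1.01 to -0.03, from 81 and 65 UMIs). Among 20 genes that transcribe and process the mitochondrial genome the median was 0.04, with 0 past 0.5 and 1 past -0.5, Prorp, a subunit of mitochondrial RNase P (-0.60, -1.37 to 0.14, from 37 and 28 UMIs). Among 13 nuclear regulators the median was 0.06 and 0 passed 0.5; Higd2a (0.28) and Higd1a (0.26) were highest and Pparg (-0.19) and Ppargc1b (-0.13) lowest. Among 20 genes of the tricarboxylic acid cycle the median was 0.07, with Cs, citrate synthase, highest (0.25, 0.07 to 0.43) and Pdhb (-0.11) and Suclg2 (-0.11) lowest. Among 20 import and outer membrane genes the median was 0.13, from Timm44 at -0.08 to Timm8b at 0.31 (0.17 to 0.45). Of these medians, that of the import genes alone lay above that of the nuclear subunits, 0.10.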

How the data were processed

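Single-cell RNA of sorted tumor cells was measured in 1 library per genotype. Per the submitters' processing notes the deposited UMI counts came from Cell Ranger 6.1.2 with mm10; the authors deposited filtered count matrices with 12 multiplexing oligonucleotides, and the labelled oligonucleotide led in every barcode of each library. Cells outside 500 to 7500 genes, or over 15% mitochondrial UMIs, were left out. No doublet caller was run; cells with a UMI of another lineage's defining gene (Cd3e or Cd79a in myeloid, C1qa or Lyz2 in lymphoid types, 568 of 2783 and 560 of 2052 named cells) were left out as an alternative. Members were removed from the 2000 variable genes, and cells were clustered with Seurat 5.3.0 in R 4.3.3 (30 components, resolution 0.8). A cluster was named if its marker score led by 0.5, with at least 3 markers each detected in 25% of cells and no more leading genes of another type; these limits were set after the data were seen, and 6 of 20 clusters stayed unnamed.

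Counts were summed per type and library and divided by all UMIs. Log2 ratios have exact conditional binomial intervals and shares exact Clopper-Pearson intervals, computed with numpy 2.4.6, pandas 2.3.3 and scipy 1.17.1 in Python 3.11.15 and tested on simulated counts. With no replicate, no test was made; a gene is counted where it has at least 50 UMIs over both libraries and lies past a log2 ratio of 0.5. Named were all mitochondria-encoded and complex II genes, the 2 most abundant nuclear members of the other complexes, isoforms, the 5 highest and 5 lowest nuclear members in macrophages, monocytes and T cells, and, from each pathway list, the highest and lowest genes in macrophages. Members, lists and this rule were chosen with earlier results of these data known; other members, named in comparisons of types or in dendritic, natural killer and innate lymphoid cells, B cells and neutrophils, were chosen after their values were seen. A gene that the rule names is not reported here. Depth was 27245625 and 28827045 UMIs. Alternatives changed the denominator, mitochondrial limit, weighting, clustering, depth window and count minimum. Promoters are RefSeq's (GRCm38.p6), and figures were drawn with matplotlib 3.10.9.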

Additional observations from a re-analysis of the deposited data

Results flagged for a closer look

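The summed subunits moved in opposite directions between genotypes in different cell types, with counting intervals away from 0 on both sides; whether the types differ was not tested, since each type has 1 library per genotype. The log2 ratio of the nuclear-encoded subunits was 0.11 in macrophages, 0.17 in T cells and 0.08 in natural killer and innate lymphoid cells, against -0.42 in neutrophils and -0.14 in B cells. That of the mitochondria-encoded subunits was 0.05 in macrophages, 0.03 in dendritic cells, 0.10 in natural killer and innate lymphoid cells and 0.24 in B cells, against -0.49 in neutrophils and -0.13 in T cells. The T cell values were 0.01 and -0.03 without the Lef1 cluster, the B cell values rest on 35 cells of the LysM-Cre library, and the neutrophils had medians of 2231 and 2113 UMIs a cell. The T cell values also leave out the unnamed Ly6c2 and Cd8a cluster, which stood at 0.04 and 0.08.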

How the results depend on the processing

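No paired analysis was possible because each genotype had 1 library, and no replicate could be left out. Of the summed log2 ratios, LysM-Cre over Pgd fl/fl, under the alternatives, 104 stayed within the counting error of the reported value, 37 moved beyond it and 3 turned a direction whose interval had excluded 0. The nuclear sum of T cells reversed to -0.04 when averaged within clusters (mitochondria-encoded -0.02), the mitochondria-encoded sum of dendritic cells to -0.03 by the mean of per-cell shares, and that of neutrophils to 0.03 with no mitochondrial limit; the cause was not tested. In macrophages the nuclear ratio was 0.06 without cells holding a UMI of another lineage, and the mitochondria-encoded ratio was 0.07 with a limit of 10% and 0.11 in cells of 4000 to 16000 UMIs. In monocytes the nuclear ratio was -0.03 by per-cell means and in that depth window and 0.05 at resolution 1.6 (22 and 45 cells there, not 128 and 328), and the mitochondria-encoded ratio was 0.10 by per-cell means, 0.07 at resolution 1.6, 0.02 with no mitochondrial limit and 0.01 without cells of another lineage's UMI; both signs were thus obtained. In T cells the nuclear ratio was 0.19 in the depth window, and the mitochondria-encoded ratio was -0.07 with no limit, -0.11 by per-cell means, -0.15 with members kept for clustering and -0.16 at resolution 1.6. Alternatives chosen after seeing the data left ribosomal protein genes out of the denominator (macrophages 0.15 nuclear and 0.09 mitochondria-encoded, T cells 0.05 and -0.25), left out macrophage cluster 10 (mitochondria-encoded 0.07) or left out T cell cluster 4 (0.01 and -0.03). With at least 200 UMIs a gene, 0 nuclear members passed 0.5 in either direction in macrophages and 0 were lower in monocytes; with at least 10, 2 were higher in monocytes and 2 in T cells. With 35 B cells and 57 and 72 neutrophils, counting error limits their values most.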
